A study of Mus musculus with 48 samples.

Results

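The early loss of cytosolic mRNA after a block of transcription was described here from the 3 libraries of cytosolic RNA taken at 30 min and the 3 taken at 120 min of flavopiridol. A gene was a member if it was listed in all 6 libraries, whatever its value. This held for 13164 of the 23862 genes listed anywhere in the series, and 17872 genes were listed in at least 1 of the 6. The measure was the log2 level at 120 min minus the log2 level at 30 min.

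The cells were E14TG2a mouse embryonic stem cells, a single established line, grown with 2 kinase inhibitors and LIF in the medium. All libraries, those of the other fractions included, came from cells that had received 1 µM flavopiridol, and the groups used here differ in fraction and in time only. Digitonin released the cytosol, NP-40 then released the membrane-bound RNA, and the pellet held the nuclei, with cycloheximide present in the buffers. Each group had 3 replicates from separately passaged cultures, and polyadenylated RNA was sequenced. Each deposited value is the scaled read count of a gene divided by that gene's own starting level in the fraction at 0 min. A value of 1 stands for no change since the drug was added. The 0 min libraries were not analysed here. Because the scale was set on long-lived mRNAs, each value is a level relative to those mRNAs, and a change that they share does not show.

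Flavopiridol inhibits CDK9, the kinase of P-TEFb, which releases RNA polymerase II from its pause near the promoter into the gene. Polymerases held at the pause then make no full-length transcript, while those already inside a gene can still run on to its end. An mRNA in the cytosol is then lost by decay, which usually begins with the shortening of its poly(A) tail by the CCR4-NOT complex and goes on with removal of the cap. It is still fed by export for as long as finished or nearly finished transcripts remain in the nucleus. AU-rich elements in the 3′ UTR, bound by proteins of the ZFP36 family, are a known signal for fast decay in transcripts of growth control and signalling genes.

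The values could be traced back to whole reads for all 13164 members, which gave 6649201 to 6930692 reads a library at 30 min and 6389927 to 6730823 at 120 min, with 16156 to 16333 and 15442 to 15643 genes listed. A mean of at least 10 reads a library stood behind 10103 members and fewer behind 3061. The median standard error of the log2 difference was 0.15 in the first class and 0.50 in the second. Of 12 stem cell markers 10 were listed in all 6 libraries, with Pou5f1 and Tfcp2l1 among the most read (Esrrb and Tbx3 were not). Of 8 fibroblast markers 1 was, Col1a1, at a mean of 4.33 reads, and of 4 endoderm markers 1, Gata6, at 7.83 reads. Of 3 neuroectoderm markers 2 were, Neurod1 and Sox1, at 24.8 to 140 reads. Of 3 mesoderm markers 2 were, Eomes and Mixl1, at 10.2 to 52.7 reads.

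Cytosolic levels were lower at 120 min than at 30 min for most genes. The library medians were −0.15, −0.10 and −0.04 (log2 ratio) at 30 min and −0.54, −0.62 and −0.62 at 120 min. The groups did not overlap, with means of −0.10 ± 0.06 and −0.59 ± 0.05 (SD, n = 3 each) and p = 0.1 in the two-sided exact permutation test, the smallest that 3 against 3 libraries can give. The median gene kept 70.8% of its 30 min level, the lower and upper quartiles lay at 49.7% and 89.1%, and genes at the 5th percentile kept 21.7%. In limma's moderated test across all members, 5762 genes (43.8%) fell and 161 (1.22%) rose at an adjusted p (Benjamini-Hochberg) under 0.05. Of those that fell, 2704 kept under 50% of their 30 min level, 855 under 25% and 167 under 10%. With replicate 1, 2 or 3 left out of both times, 4390, 2423 and 2676 genes fell and 117, 68 and 91 rose.

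The counts of falls and rises depend on the scale. Centring every library on its median gene moved all differences by 0.50. Then 2273 genes were lower and 1729 higher than the median gene, and falls went from 97.3% to 56.8% of all calls. Centring sets the median gene near 0, so a move towards equal shares was given in advance. Scaling to 64 ribosomal protein mRNAs moved the differences by 0.03 and gave 5320 falls (96.9% of calls) and 170 rises. These mRNAs barely changed on the authors' scale (median −0.05), which rests on long-lived mRNAs too. The near match is thus no independent check. Scaling to 10 mitochondrially encoded RNAs moved the differences by 0.15 and gave 2762 falls (95.4% of calls) and 133 rises. Among protein-coding genes 48.9% fell, among lincRNAs 36.9%, and among processed pseudogenes 10.1%. The median reads of the 3 classes were 105, 13 and 9, and the part of depth in this order was not tested.

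**Figure D1:**
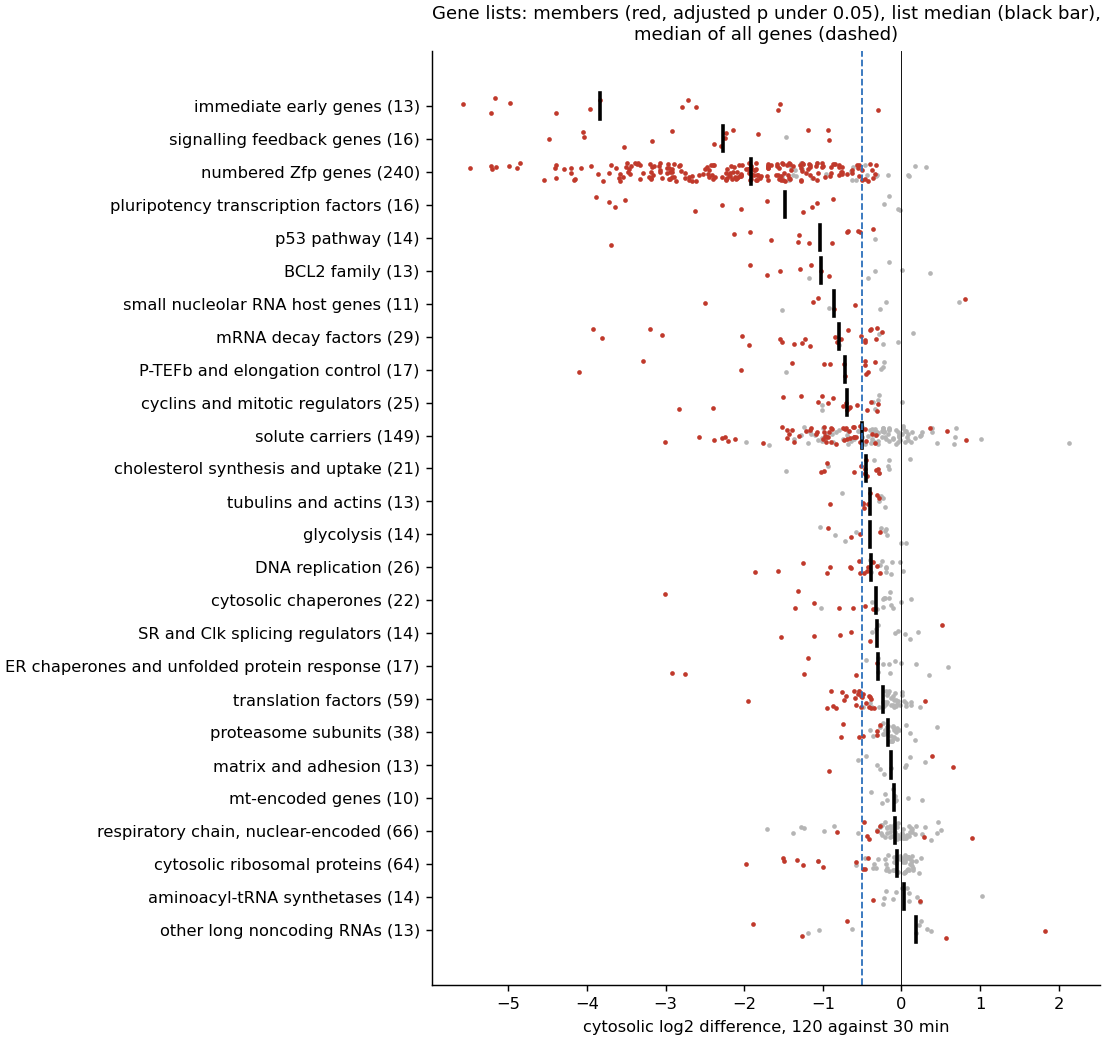
Log2 difference between 120 and 30 min (x axis) for each member of 26 gene lists (y axis, number of members tested in brackets), with members past an adjusted p of 0.05 in red, list medians as black bars and the median of all genes, −0.50, as a dashed line. Immediate early genes sit farthest to the left, with a median of −3.83, and ribosomal protein and tRNA synthetase genes lie around 0.

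The sequences below are AU-rich sites of 4 genes that lost over 90% of their cytosolic level. They are shown because this 7-base core was more frequent among genes with larger falls. Each is a stretch of the annotated 3′ UTR (GENCODE vM21, mouse build GRCm38), 5′ to 3′ on the transcript, with the core in capitals.
Dusp1, chr17:26505873-26505895, minus strand: tttaccttTATTTATttttgtgt
Dusp1, chr17:26505677-26505699, minus strand: tgtttgttTATTTATgatctgaa
Nfkbia, chr12:55489611-55489633, minus strand: ccacgtttTATTTATtgtgcttt
Nfkbia, chr12:55489422-55489444, minus strand: aagatgtaTATTTATtaaacaga
Socs3, chr11:117966142-117966164, minus strand: tgcacataTATTTATatttatac
Socs3, chr11:117966136-117966158, minus strand: tatatttaTATTTATactcagaa
Spry2, chr14:105892095-105892117, minus strand: gtaaagaaTATTTATttgaagtt
Spry2, chr14:105892056-105892078, minus strand: aaaaagaaTATTTATtttaagag
Both Socs3 sites overlap each other.

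The core TATTTAT was searched in the last 300 bases of the annotated 3′ UTR of 7807 protein-coding members with a UTR of that length, and 10.0% of these windows held it. When members were ranked by their log2 difference and cut into 4 classes of equal size, the share was 12.8% in the class with the largest falls, then 10.4% and 8.79%, and 7.86% in the class with the smallest falls or with rises. Its reverse complement ATAAATA, which has the same base composition, was found in 11.6%, 11.9%, 13.0% and 12.9%. The core of the Pumilio site, TGTANATA, went from 11.5% and 12.1% to 8.38% and 7.52%, and its reverse complement TATNTACA from 4.40% and 4.93% to 3.22% and 3.79%. The mean A and T content of the windows lay between 58.4% and 59.0% in all 4 classes. These shares are descriptions of the annotated sequence, and most genes with a large fall held neither core in the window.

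The 8 genes named first are those with the largest falls by the confidence bound nearest 0. Trib1, a pseudokinase that directs the transcription factor C/EBPα to degradation (chromosome 15, 59648350 to 59657099, plus strand), stood at 0.632, 0.641 and 0.656 of its 0 min level at 30 min and at 0.0105, 0.0132 and 0.0156 at 120 min. Its level was low in every late library and the groups were far apart, with a log2 difference of −5.63 ± 0.19 (SE) and an adjusted p of 0.000602 in limma. At that rate the level halved every 16.0 min. Dusp1, a phosphatase that switches off MAP kinases, went from 0.264, 0.305 and 0.375 to 0.00964, 0.00645 and 0.0095. Dusp1 was thus already under 40% in all early libraries, and its further log2 difference was −5.21 ± 0.23. Klf6, a Krüppel-like transcription factor, went from 0.561, 0.522 and 0.736 to 0.0201, 0.021 and 0.0162, a difference of −4.98 ± 0.21. Zfp105 went from 0.546, 0.625 and 0.611 to 0.0201, 0.0219 and 0.0182. The remaining genes of the 8 were Ier5l (−5.17), Zfp296 (−5.21), Zfp85 (−4.99) and Sertad1 (−4.87), and each kept 2.7% to 3.42% of its 30 min level. Cmtr2, which encodes a cap methyltransferase and was named after its value was seen, had a difference of −5.21 ± 0.42 with a wider error.

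Immediate early genes, which cells switch on within minutes of a stimulus, fell as a group. All 13 tested members were called lower, against 43.8% of all genes, and their median difference was −3.83 against −0.50. The AP-1 subunit gene Junb stood at 0.706, 0.567 and 0.546 at 30 min and at 0.0263, 0.0044 and 0.0173 at 120 min (log2 difference −5.58 ± 0.67). Its late values differed widely among themselves, at a mean of 59.7 reads, but none came near the early values. Ier2 went from 0.578, 0.470 and 0.517 to 0.0287, 0.0237 and 0.0224. Klf10 kept 7.01% of its 30 min level and Nr4a1, an orphan nuclear receptor gene, had a log2 difference of −2.71. Srf, whose product switches on many genes of this group, had the smallest fall, −0.30 ± 0.08 with an adjusted p of 0.032 by limma; the sign turned to 0.20 when libraries were centred on the median gene. Fos fell by 3.96 on the log2 scale at a mean of only 7 reads.

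Feedback inhibitors of signalling pathways followed. Of 16 tested, 15 fell, against 43.8% of all genes, with a median difference of −2.27. Hes1, the repressor induced by Notch, stood at 0.515, 0.460 and 0.559 at 30 min and at 0.0291, 0.0187 and 0.0218 at 120 min. Socs3, the feedback inhibitor of LIF and STAT3 signalling, went from 0.364, 0.337 and 0.374 to 0.0214, 0.0196 and 0.0239, a difference of −4.05 ± 0.15. Its early libraries were already under 40% of the starting level. Spry2, an inhibitor of FGF receptor signalling, kept 6.11% of its 30 min level, Smad7, which blocks TGF-β receptors, kept 20.4%, and Spred1 kept 53%. Nkd1 was the member not called, at a mean of 3 reads.

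Transcription factors listed for pluripotency, not all of which maintain that state, ranged widely. Of 16 tested, 12 fell (75%, against 43.8% of all genes; median −1.48) and 4 were not called. Klf4 stood at 0.846, 0.824 and 0.864 at 30 min and at 0.0618, 0.054 and 0.0557 at 120 min. Sox2 went from 0.772, 0.734 and 0.796 to 0.0633, 0.0566 and 0.0552. Klf2 went from 0.757, 0.670 and 0.744 to 0.0541, 0.0647 and 0.0551. For each of these 3 genes all late libraries lay far below the lowest early one, and the level halved every 23.1, 24.2 and 24.7 min.

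An intermediate group lost less. Klf5 kept 16.3%, Sall4 24.3% and Prdm14, a repressor of differentiation genes, 30.5% of the 30 min level. Nanog went from 1.18, 0.977 and 0.954 to 0.502, 0.555 and 0.650, without overlap, and kept 54.9% (log2 difference −0.87 ± 0.14, adjusted p = 0.00569 by limma). Pou5f1, which encodes OCT4, stood at 0.952, 1.02 and 1.06 at 30 min and at 1.06, 1.01 and 0.932 at 120 min, so the groups overlapped fully. Its difference of −0.01 ± 0.09 turned to 0.02 on the ribosomal protein scale and to 0.48 relative to the median gene. Tfcp2l1 (−0.16), Tcf7l1 (−0.23) and Nr0b1 (−0.05) were not called either.

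**Figure D2:**
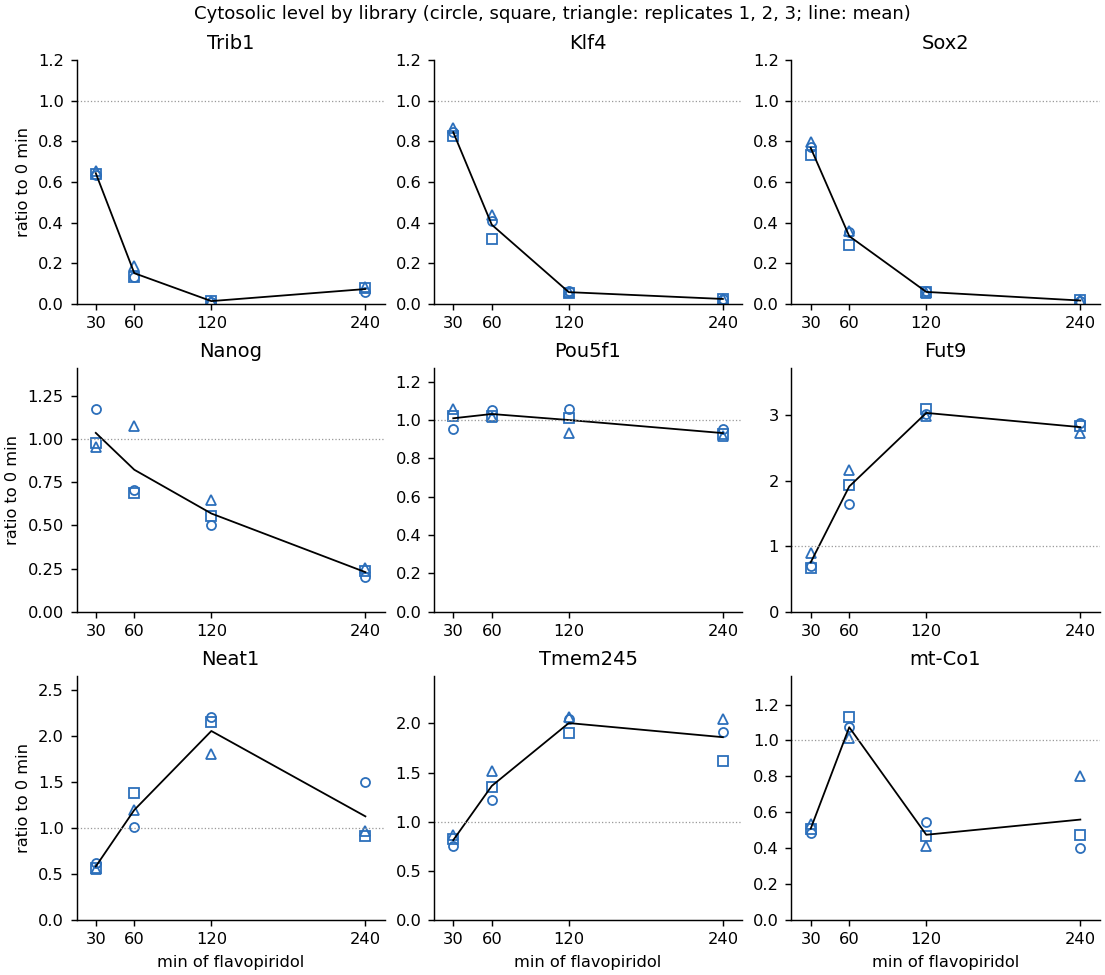
Cytosolic ratio to 0 min (y axis, from 0) against min of flavopiridol (x axis) for 9 genes, with 1 symbol per replicate and a line through the mean of 3 libraries. Trib1, Klf4 and Sox2 are close to 0 at 120 min and Pou5f1 stays near 1, while Fut9, Neat1 and Tmem245 climb up to 120 min, and mt-Co1 is highest at 60 min.

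Zinc finger genes with a Zfp number made up the largest list. Of 240 tested, 214 fell (89.2%, against 43.8% of all genes) and none rose (1.22% of all genes did), with a median difference of −1.91, and 112 kept under 25% of the 30 min level. Among the 220 with at least 10 reads 207 fell. The median halving time was 46.7 min. Zfp39 had the lowest difference, −5.49 ± 0.70, and Zfp981 the highest, 0.31 ± 0.70 at a mean of 4 reads.

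Genes for cyclins and regulators of P-TEFb, whose kinase CDK9 the drug inhibits, were among those that fell. Of 17 genes for P-TEFb and elongation control, 13 fell (76.5%, against 43.8% of all genes; median −0.72). Relative to the median gene 6 were lower and 1 higher. Hexim1, which holds P-TEFb inactive together with the 7SK RNA, went from 0.913, 0.863 and 0.926 to 0.244, 0.209 and 0.206, and kept 24.3%. Mepce, the enzyme that caps 7SK, went from 0.719, 0.643 and 0.718 to 0.063, 0.067 and 0.0844. Hexim2 kept 5.85%. The cyclin genes Ccnt1 and Ccnt2 kept 38% and 50.6%. Larp7, the protein that protects 7SK, had a difference of −0.22 ± 0.09 that was not called and that became 0.28, called higher, relative to the median gene. Without replicate 2 or 3, 7 and 8 of these genes fell. Cdk9 itself rested on 3 reads a library and was not called.

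Of 29 tested genes for the machinery of mRNA decay 24 fell (82.8%, against 43.8% of all genes), with a median of −0.80. Among the antiproliferative factors that recruit CCR4-NOT, Tob1 went from 0.450, 0.450 and 0.435 to 0.0325, 0.0247 and 0.032, Tob2 kept 7.14% and Btg1 10.9%. The ARE-binding factors Zfp36l1 and Zfp36l2 kept 34.9% and 24.6%, and the decapping factor Dcp1a kept 26.2%. Dcp2, the decapping enzyme, fell by 0.31 on the log2 scale, and Xrn1, the exonuclease that follows it, had a difference of −0.28 that was not called. Relative to the median gene 12 members were lower and 2 higher, and without replicate 2 or 3 the falls numbered 11 and 13.

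Cell cycle and stress genes showed wide ranges within each list. Against 43.8% of all genes, falls made up 72% of cyclin and mitotic, 57.7% of DNA replication, 92.9% of p53 pathway and 53.8% of BCL2 family genes, so the shares of the replication and BCL2 lists lay near that of all genes. Of 25 cyclin and mitotic genes 18 fell (median −0.70), led by Birc5, the gene of the mitotic regulator survivin (−2.83 ± 0.35), and by Wee1, a kinase that holds back mitosis, which went from 0.805, 0.922 and 0.964 to 0.174, 0.168 and 0.169. Bub1 stood at 0.01 ± 0.09. Of 26 DNA replication genes 15 fell (median −0.39), with Cdt1, a licensing factor of replication origins, lowest at 27.4% left, and Pola1 at 0.01 ± 0.10. Of 14 genes of the p53 pathway 13 fell (median −1.03). Cdkn1a, the cell cycle inhibitor p21, went from 0.483, 0.631 and 0.618 to 0.0459, 0.0437 and 0.0429. The pathway's Ppm1d and Bbc3 kept 31.8% and 26.3%. Of 13 BCL2 family genes 7 fell (median −1.03). Mcl1, the short-lived survival factor, kept 30.5%, while Bak1 stood at 0.01 and the proapoptotic Pmaip1 at −0.34 ± 0.16, not called. Without replicate 2 the falls in these 4 lists numbered 7, 3, 5 and 5, and without replicate 3 they numbered 9, 3, 8 and 5. Without replicate 1, 9 replication genes fell, and relative to the median gene 4 replication genes were lower and 6 higher.

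Splicing regulators were mixed. Of 14 genes 5 fell (35.7%, against 43.8% of all genes) and 1 rose (1.22% of all genes did). Their median was −0.31 against −0.50, and without replicate 2 or 3 only 2 fell. The Clk kinases, which phosphorylate SR proteins, fell in order of Clk1 (−1.53), Clk4 (−1.11) and Clk3 (−0.79). Srsf11 rose by 0.51 ± 0.16 with an adjusted p of 0.041, a call lost in limma with variance priors set on reads (adjusted p = 0.0594) and with any replicate left out.

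Several housekeeping lists had medians near 0. Of 64 ribosomal protein genes 11 fell (17.2%, against 43.8% of all genes) and none rose, with a median of −0.05. Rpl4 stood at 0.911, 0.953 and 0.967 at 30 min and at 1.03, 1.03 and 1.03 at 120 min, and Rplp0 at 1.08, 1.11 and 1.07 and at 1.16, 1.07 and 0.989. The lowest, Rps9 (−1.97), rested on a mean of 16.3 reads. Reads shared with near-identical copies could not be checked, so values of this family are uncertain. Of 66 nuclear-encoded respiratory chain genes 6 fell and 2 rose (median −0.08). Of 14 tRNA synthetase genes Vars fell (−0.36) and Nars rose (0.23 ± 0.07, adjusted p = 0.0468 by limma), with a median of 0.04. Of 38 proteasome genes 7 fell (median −0.18). Relative to the median gene 27 ribosomal protein, 32 respiratory chain, 10 synthetase and 21 proteasome genes were higher. With any replicate left out, 3 to 7 ribosomal protein, 0 to 2 respiratory chain and 1 to 5 proteasome genes fell, and neither synthetase call was made.

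Further lists had medians from −0.24 to −0.51, with falls in 28.6% to 61.9% of their members against 43.8% of all genes. Of 59 genes with symbols in Eif or Eef, mostly translation factors, 24 fell and 1 rose (median −0.24). Eef1a1, the most read member at 248401 reads, stood at 0.12 ± 0.08. Of 22 cytosolic chaperone genes 9 fell (median −0.33), with the heat-inducible Dnajb1 at −3.01 and Hsp90ab1 at −0.15. Of 14 glycolysis genes 4 fell (median −0.40), Hk2 by 0.65 on the log2 scale. Of 13 tubulin and actin genes 8 fell (median −0.40), and of 21 cholesterol genes 13 (median −0.44). Of 17 genes of ER folding and its stress response 6 fell (median −0.30), chiefly the response genes Dnajb9 (−2.91), Atf4 (−2.76), Xbp1 (−1.23) and Ddit3 (−1.18), while Hsp90b1 (−0.14), Pdia3 (−0.01) and Calr (0.19) were not called. Of 149 solute carrier genes 51 fell (34.2%, against 43.8% of all genes) and 3 rose (median −0.51). Without replicate 2 or 3 the falls numbered 1 and 2 for Eif or Eef, 3 and 1 for chaperone, 1 and 1 for glycolysis, 1 and 1 for tubulin or actin, 1 and 0 for cholesterol, 3 and 4 for ER and 24 and 20 for solute carrier genes, and without replicate 1 they numbered 4 for chaperone, 4 for tubulin or actin and 7 for cholesterol genes. Relative to the median gene 25 Eif or Eef genes were higher and 1 lower, and 7 chaperone genes were higher and 2 lower.

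One solute carrier stood outside the test. Slc3a2, the heavy chain shared by several amino acid transporters, went from 2.71, 3.70 and 1.14 at 30 min to 10.3, 9.53 and 9.95 at 120 min, 4.39-fold and without overlap, at a mean of 40.7 reads. It was not called in limma (log2 difference 2.13, SE 6.74, adjusted p = 0.821), because the prior variance follows the mean log ratio and few genes had so high a mean. With a single prior the SE was 0.44 and the adjusted p 0.0132 by limma. A standard error over 2 was found for 6 genes.

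Long noncoding RNAs included both directions. Of 13 tested 3 fell (23.1%, against 43.8% of all genes) and 2 rose (1.22% of all genes did), and their median was 0.18. Neat1, the scaffold RNA of nuclear paraspeckles, stood at 0.622, 0.568 and 0.551 at 30 min and at 2.21, 2.15 and 1.8 at 120 min, and rose 3.53-fold (log2 difference 1.82 ± 0.11, adjusted p = 0.000774 by limma). Pvt1 rose by 0.57 ± 0.14. Other RNAs known to stay in the nucleus were Malat1 (0.32), Xist (0.37) and Kcnq1ot1 (0.18), none of them called. Whether nuclear RNA in the cytosolic extract has a part in these values was not tested. Mir17hg (−1.89) and Tug1 (−1.26) fell. Of 11 host genes of small nucleolar RNAs 5 fell (45.5%) and 1 rose (median −0.85), with Snhg5 at −2.50 and Snhg11 at 0.81. The share of hosts that fell lay near that of all genes. Without replicate 1, 2 or 3 the falls among hosts numbered 1, 2 and 1.

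Rises were few, and 108 of the 161 rested on at least 10 reads, 84 of them protein-coding, with folds from 1.18 to 5.41. Among the genes with the largest rises, Cavin4, a caveolar coat protein gene of muscle, stood at 0.499, 0.648 and 0.701 at 30 min and at 3.34, 3.12 and 3.12 at 120 min. Fut9, the fucosyltransferase that makes the stem cell epitope SSEA-1 (chromosome 4, 25609332 to 25800244, minus strand), went from 0.690, 0.668 and 0.901 through 1.64, 1.93 and 2.16 at 60 min to 3.01, 3.10 and 2.98. Every later library was above every earlier one for both genes. Tmem245 went from 0.753, 0.821 and 0.859 to 2.04, 1.9 and 2.07, a log2 difference of 1.31 ± 0.10 at a mean of 658 reads. Agpat5 rose 5.41-fold at a mean of 24.3 reads, with early values of 1.2, 1.25 and 0.451. The remaining genes in this class, Elmo2, Pcdhgc4 and D7Ertd128e, rested on 8.5, 4.17 and 5.67 reads.

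Several further risers encode membrane or secreted proteins, and these were chosen for display after their values had been seen. Cers6, a ceramide synthase, stood at 0.852, 1.12 and 0.793 at 30 min, at 1.06, 1.15 and 1.12 at 60 min and at 2.69, 2.05 and 2.29 at 120 min. Atf6, a membrane-bound sensor of ER stress, went from 0.871, 0.710 and 0.741 to 1.35, 1.59 and 1.5. Ppm1l, a phosphatase of the ER membrane, rose 2.21-fold, the hydrolase gene Abhd2 1.83-fold and the N-glycan branching enzyme gene Mgat5 1.77-fold. The laminin gene Lamc1 went from 0.714, 0.737 and 0.823 to 1.22, 1.17 and 1.19. Of the 161 risers 3 lay above 1 in all 3 libraries at 30 min and 110 lay above 1 in all 3 at 120 min. Over all 13164 members 1912 lay above 1 in all 3 at 30 min and 666 at 120 min. The risers were picked by the difference between these same libraries, so low early and high late values follow in part from that choice.

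The protein-coding genes that rose were long. Their median span from first to last base was 92.0 kb, against 23.2 kb for all protein-coding members and 16.3 kb in the class with the largest falls. They had a median of 14 exons, against 9 and 5, and a median 3′ UTR of 2246 bases, against 999 and 1173. A predicted hydrophobic segment, a run of 19 residues with a mean Kyte-Doolittle score of at least 1.6 as found in signal peptides and membrane spans, was present in 57.9% of the risers, 30.4% of all, and 27.2%, 32.2%, 28.6% and 33.6% of the 4 classes from the largest falls on. Genes that kept under 25% of their level had a median of 4 exons and a span of 11.3 kb. Across 9894 protein-coding genes, which are not independent replicates, Spearman's rho with the log2 difference was 0.27 for the number of exons, 0.17 for the span, −0.11 for the 3′ UTR length, −0.09 for the spliced length and −0.07 for GC content. For the highest hydropathy of a protein it was 0.06 (9869 genes). With at least 10 reads (8206 genes) the first 2 were 0.28 and 0.17.

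**Figure D3:**
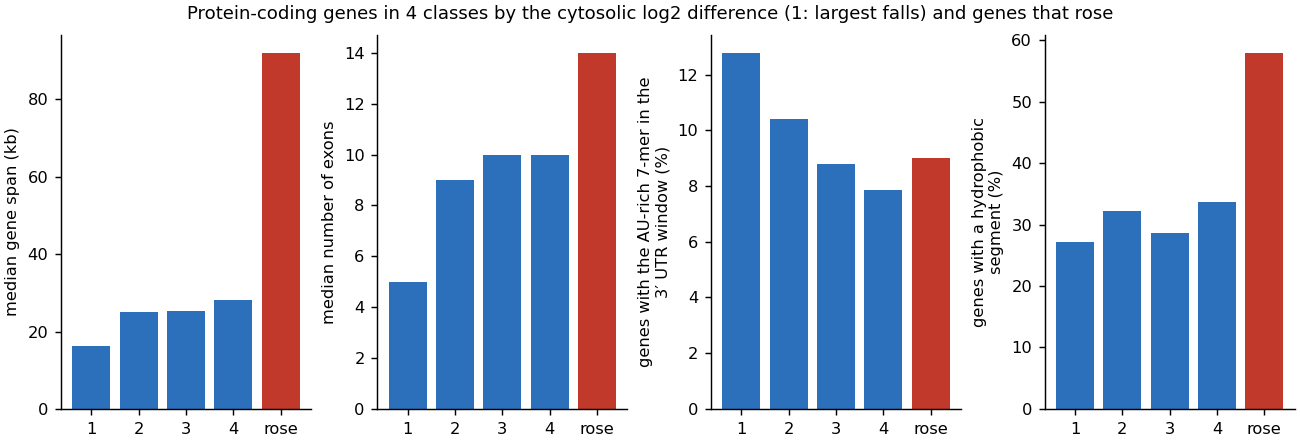
Medians or shares for protein-coding genes in 4 classes of equal size by the cytosolic log2 difference (x axis, class 1 with the largest falls) and for genes that rose (red, all also in class 4): gene span in kb, number of exons, percent with the AU-rich core in the 3′ UTR window, and percent with a hydrophobic segment. Gene span is 16.3 kb in class 1 and 92.0 kb among risers, and the share with the core goes down from 12.8% to 7.86% across the classes.

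Libraries at 60 min split the window into 2 intervals, and 12814 genes were listed in all 9 libraries. From 30 to 60 min 146 genes fell (1.14%) and 18 rose (0.14%), and from 60 to 120 min 4246 fell (33.1%) and 81 rose (0.632%). The median changes per hour were −0.29 and −0.36 on the log2 scale, with median standard errors of 0.38 and 0.19, so the shorter first interval was measured less precisely. The change of rate itself passed the test for 4 genes that were lower after 60 min (0.0312%) and 2 that were higher (0.0156%), with 772 at an unadjusted p under 0.05, so the count of genes that fell cannot be read as an acceleration. The 4 were Gm43339, mt-Co1, mt-Nd5 and mt-Nd6, and the 2 were Col4a2 and Tgfbrap1, and all 6 calls were lost with any replicate left out.

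Mitochondrially encoded RNAs, as a list, had their highest median at 60 min. mt-Co1, a cytochrome oxidase subunit, stood at 0.486, 0.507 and 0.532 at 30 min, at 1.08, 1.13 and 1.01 at 60 min and at 0.545, 0.466 and 0.411 at 120 min. The 60 min libraries were high for all 3 replicates. The median of the 10 mitochondrial genes was −0.60 ± 0.03 at 30 min, 0.11 ± 0.07 at 60 min and −0.75 ± 0.25 at 120 min (log2, SD, n = 3), and none was called between 30 and 120 min. They come from mitochondria and are not made by RNA polymerase II, and the part of the fractionation in the 60 min values was not tested. Col4a2, a basement membrane collagen gene, dipped instead, from 1.26, 1.31 and 1.18 to 0.597, 0.473 and 0.556 and back to 1.05, 0.925 and 1.27, at a mean of 17.3 reads.

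By list, the early and late rates lay side by side. Immediate early genes changed by a median of −3.21 and −2.34 per hour, feedback genes by −2.02 and −1.47, pluripotency factors by −1.3 and −0.78, and Zfp genes by −1.37 and −1.26. For the 848 genes that fell to under 25% of the level, the rates were −1.78 and −1.73. Risers went up by 0.67 and then 0.38 per hour. None of these list differences was tested.

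The nucleus was compared over the same window to see which cytosolic changes ran apart from the nuclear ones. In 12272 genes tested, the cytosolic change was lower than the nuclear one for 141 (1.15%) and higher for 306 (2.49%). One nuclear library at 30 min stood apart, replicate 1 with a median of −0.85 against −0.10 and −0.31, and without it the counts were 309 and 1409. Of the 5625 genes that fell in the cytosol and were tested, 3831 also fell in the nucleus (68.1%) and 45 rose there, while nuclear falls made up 45.8% and nuclear rises 1.96% over all 12272 genes. Of 148 risers 16 fell in the nucleus and 32 rose (21.6%), with a median nuclear difference of 0.32 (0.07 without that library). Without replicate 1 of every group 70 were lower and 521 higher, and without replicate 2 or 3 none passed in limma (1504 and 1197 at an unadjusted p under 0.05). The fractions of a harvest come from the same cells, but the sources used here do not say whether equal replicate numbers mark 1 harvest. With the number as a block 48 were lower and 120 higher. With time and number together as a block, an alternative added after the data were seen, none passed in limma (2218 at an unadjusted p under 0.05), so each call below was lost there.

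Examples follow for genes with at least 100 cytosolic reads. Trib1 fell by 5.63 in the cytosol and by 3.04 in the nucleus, a difference of −2.59 ± 0.37 (adjusted p = 0.0134 by limma, and 0.0748 with that block). In the nucleus it stood at 0.504, 0.493 and 0.430 at 30 min and at 0.0816, 0.0526 and 0.0444 at 120 min. Klf6 (−2.13) and Pnrc1 (−2.22) showed the same order. For a few other genes the nuclear level rose while the cytosolic level fell. Nf1, a Ras GTPase-activating protein gene of 242 kb, went from 0.766, 0.900 and 0.923 to 0.571, 0.570 and 0.515 in the cytosol and from 0.722, 1.15 and 0.702 to 2.00, 1.96 and 1.66 in the nucleus. Gsk3b (−0.95 and 0.91), Hdac4 (−0.86 and 1.18) and Gli3 (−0.76 and 1.08) had like pairs of cytosolic and nuclear differences. Such opposite calls were made for 27 of the 12272 genes tested, and for 41 of 12346 without the nuclear library that stood apart. The protein-coding genes lower in the cytosol than in the nucleus had a median span of 91.9 kb, those higher 14.0 kb.

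In the other direction, the nuclear level fell more than the cytosolic one. Hnrnpa2b1, an RNA-binding protein gene, kept 78.3% in the cytosol, and its nuclear values went from 0.401, 0.625 and 0.459 to 0.0524, 0.0443 and 0.0377 (difference between fractions 3.10 ± 0.33, adjusted p = 0.00893 by limma and 0.0627 with that block). Ldb1, Nap1l1 and Eif4a2 had differences of 3.00, 2.54 and 2.65, the last with a fall of 0.72 in the cytosol. Malat1 stood at −2.47 in the nucleus and at 0.32 in the cytosol. A cytosolic rise beside a nuclear fall was called for 10 of the 12272 genes tested. They were Acsl5, Cpeb1, Slc36a1, Triml1 and 6 noncoding or predicted ones. Without the nuclear library that stood apart, the same call was made for 28 of 12346 genes. Triml1, a TRIM family gene read 2125 times a library, went from 0.865, 0.826 and 0.879 to 1.25, 1.23 and 1.2 in the cytosol and fell by 1.10 on the log2 scale in the nucleus.

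**Figure D4:**
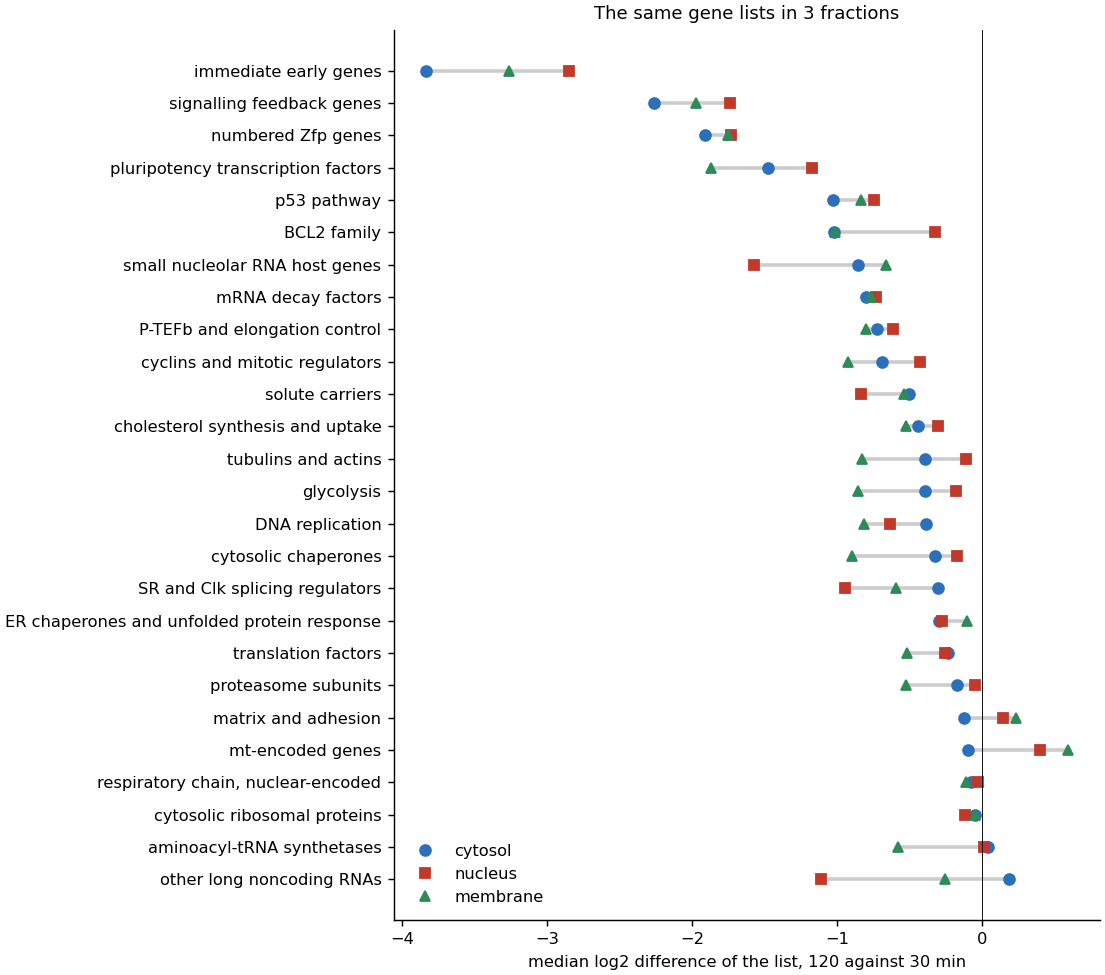
Median log2 difference between 120 and 30 min (x axis) of each gene list (y axis) in the cytosol, the nucleus and the membranes, each relative to its own 0 min level. Immediate early genes stand at −3.83 in the cytosol, −2.85 in nuclear RNA and −3.27 in membrane-bound RNA, and tRNA synthetase genes at 0.04, 0.01 and −0.59.

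The membrane fraction, which holds mRNA translated at the ER, was compared in the same way. Of 12074 genes the cytosolic change was lower for 218 (1.81%) and higher for 619 (5.13%). These counts hang on the scale between fractions, and fell to 29 and 16 with libraries scaled to ribosomal protein mRNAs. With replicate 1, 2 or 3 left out of every group none passed in limma (2389, 1694 and 2017 at an unadjusted p under 0.05). With the replicate number as a block 353 were higher, and with time and number together 1 was lower and none higher (2798 at an unadjusted p under 0.05). The lists held unequal numbers of members that were higher in the cytosol. Of 14 tRNA synthetase genes 9 were higher in the cytosol, with a median membrane difference of −0.59, of 13 tubulin and actin genes 7 (−0.83), of 20 cytosolic chaperone genes 6 (−0.90) and of 13 glycolysis genes 5 (−0.86). The same call was made for 5 of 26 DNA replication genes, 4 of 23 cyclin and mitotic genes and 1 of 61 ribosomal protein genes. Without a hydrophobic segment the median difference was −0.51 for cytosolic RNA and −0.71 for membrane-bound RNA (6426 genes), and with one it was −0.50 and −0.49 (2901 genes).

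Of 144 cytosolic risers tested here, 49 also rose in the membrane fraction (34.0%) and 16 fell. Over all 12074 genes, 1.98% rose and 56.6% fell there. A hydrophobic segment was predicted for 46.3% of protein-coding genes lower in the cytosol than in the membrane fraction, and for 24.6% of those higher. Some risers for membrane proteins moved in opposite directions. Cers6 rose in the cytosol and went from 0.948, 1.00 and 1.03 to 0.645, 0.661 and 0.833 in the membrane fraction, a difference between fractions of 1.84 ± 0.22 (adjusted p = 0.0115 by limma, and 0.08 with time and number as a block). Abhd2 (0.87 and −0.71), Mgat5 (0.82 and −0.86) and Atf6 (0.94 and −0.35) had like pairs of cytosolic and membrane differences. Both were up for Fut9, 2.02 and 1.04, and for Neat1, 1.82 and 0.96. Tfrc, the transferrin receptor gene, went from 0.658, 0.675 and 0.771 to 0.330, 0.296 and 0.279 in the cytosol and from 0.940, 1.03 and 1.04 to 0.800, 0.827 and 0.955 in the membrane fraction, a difference of −0.99 ± 0.16 (adjusted p = 0.0168 by limma, and 0.08 with that block). Pabpc1, the cytosolic poly(A)-binding protein gene, fell by 1.08 on the log2 scale in the cytosol and stood at 0.20 in the membrane fraction. Of 10 mitochondrial genes 5 were lower in the cytosol than in the membrane fraction.

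**Figure D5:**
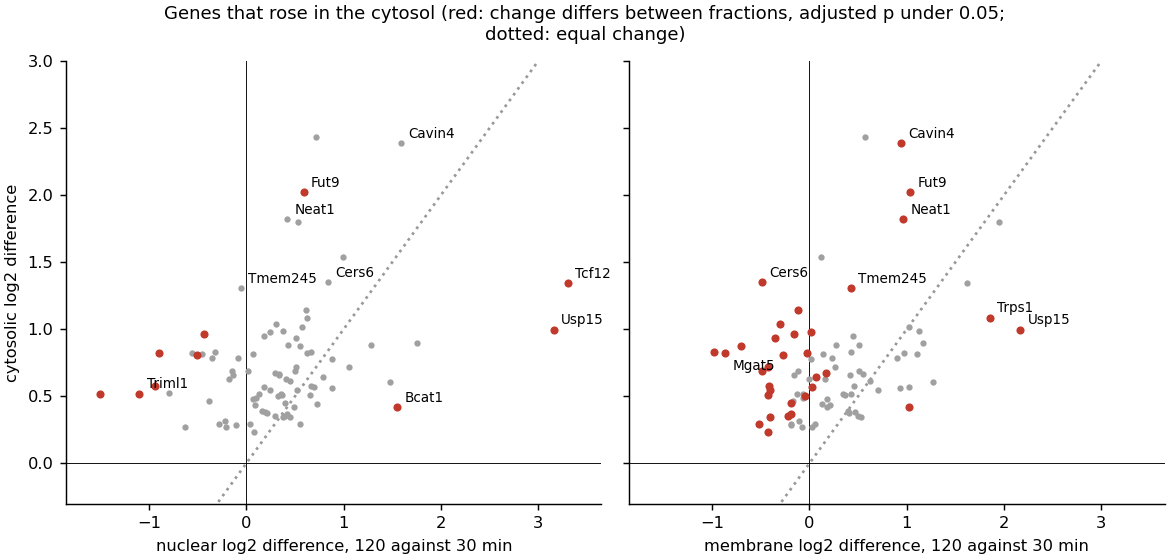
Cytosolic log2 difference (y axis) of 87 genes that rose, with at least 10 reads and a named symbol, against their nuclear (left) or membrane (right) log2 difference (x axis), with the dotted line at equal change and genes whose fractions differ in red. Triml1 lies left of 0 in the nuclear panel and Cers6 and Mgat5 lie left of 0 in the membrane panel, while Usp15 lies right of the dotted line in both.

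Genes that dropped out of the files are not among the members. Listed in all 3 libraries at 30 min and in none at 120 min were 161 genes, and 27 showed the reverse. They were thinly read, with a median of 2.33 reads at 30 min and at most 11.0 among the 90 whose reads could be recovered. The most read were Fam124b (11.0), Ccn1, a secreted matrix protein gene of the immediate early class (10.3), and Msx1, a homeobox gene (10.0), named after their values were seen. A file leaves out genes at 0, so these losses may rest on a few reads, and no fold is given.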

How the data were processed

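Polyadenylated RNA of E14TG2a cells was sequenced by fraction after flavopiridol. The authors aligned reads to mm10 with STAR 2.7.6, counted with RSEM 1.3.3, scaled libraries on mRNAs with known half-lives over 14 h, and divided each gene by its 0 min level. What the authors deposited is thus a ratio per gene and library, not a count. Genes at 0 are left out of the files. The last time is 240 min in the titles and 180 min in the protocol text.

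Each library's scale was taken from the most frequent quotient between libraries, and a gene's reads were the smallest whole numbers that match its ratios across the 12 cytosolic libraries (tolerance 0.001). A common divisor would understate them. They served for depth, not for the main test. These reads are not unique molecules, and depth limits precision beyond replicate spread.

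The log2 ratios of genes listed in all libraries of a comparison were tested with limma 3.58.1 (R 4.3.3, lmFit and eBayes with trend, no pseudocount, no replicate block). Adjusted p-values are Benjamini-Hochberg over all genes of the fit, and values are given ± SE unless stated. The interval fit took 9 libraries, and each comparison of fractions took 12, with an interaction term. Test code was checked on simulated data. No pair of replicates agreed within sampling noise. P-values measure the spread between separately passaged cultures of 1 line.

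Gene lists were matched by symbol (23786 of 23862 identifiers matched GENCODE vM21), with pseudogenes left out. Features came from 1 transcript a gene, that with the longest coding sequence. Members, lists and the rule for named genes were chosen with earlier results of these data known. By that rule the text names the 8 largest falls and rises by the confidence bound nearest 0 (no predicted genes, pseudogenes or mt genes; listed at 30, 60 and 120 min), Tfrc and Nf1, the extremes of each list, and the leading genes of the other comparisons. Other genes were named after their values were seen. Alternatives were other scales, pseudocounts, gene filters, priors, a replicate block, a block by time and number and leaving out libraries.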

Additional observations from a re-analysis of the deposited data

Results flagged for a closer look

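The change from 30 to 120 min differed between cytosol and nucleus for 447 genes and between cytosol and membrane fraction for 837, each by the test of the difference itself (limma interaction, adjusted p under 0.05). With libraries of the same time and replicate number paired, these counts were 0 and 1 (2218 and 2798 at an unadjusted p under 0.05). Among the named genes, the cytosolic minus nuclear difference (log2) was positive for Cfap20 (4.53), Tha1 (4.3), D7Ertd128e (3.49), Sars (3.42), Hnrnpa2b1 (3.10), Birc5 (2.96), Slc3a2 (2.51), Srsf11 (2.02) and Fut9 (1.43). It was negative for Gp5 (−5.23), Shisa3 (−3.25), Lrrc4 (−3.24), Trib1 (−2.59), Dusp1 (−2.22), Klf6 (−2.13), Hes1 (−1.81) and Nf1 (−1.80). Cfap20, Tha1, D7Ertd128e, Sars, Gp5, Shisa3 and Lrrc4 rested on a mean of under 10 cytosolic reads.

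The cytosolic minus membrane difference was positive for Kcnq1ot1 (2.34), Aldh3b1 (2.26), Tgfbrap1 (1.91), Cers6 (1.84), Cavin4 (1.44), Hnrnpa2b1 (1.21), Fut9 (0.98), Tmem245 (0.88), Neat1 (0.86), Cct8 (0.64) and Tuba1b (0.48). It was negative for Art1 (−3.07), Tpcn2 (−2.31), Aplp2 (−2.29), Klf6 (−1.37), Trib1 (−1.34) and Tfrc (−0.99). Art1, Tpcn2, Aplp2 and Tgfbrap1 rested on a mean of under 10 cytosolic reads.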

How the results depend on the processing

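Against 5762 falls and 161 rises in the cytosol, other priors, pseudocounts, gene filters, voom on recovered reads and all 12 cytosolic libraries gave 5437 to 6705 falls and 147 to 181 rises, of which voom shared 5535 and 105 with the first counts and the reads filter 5248 and 108. Centring on the median gene gave 2273 and 1729, and scaling to mitochondrially encoded RNAs 2762 falls. Leaving out a replicate gave 2423 to 4390 falls and 68 to 117 rises, from fewer libraries. The reads filter, read-based priors, voom and the block by time and number together were chosen after seeing the data. The 4 lower and 2 higher rates became 0 and 0 with all 12 libraries (667 at an unadjusted p under 0.05), with the replicate block (876) and with any replicate left out (714 to 769), 2 and 4 with median centring, 4 higher at pseudocount 0.5, 1 higher with the reads filter, 1 higher on the ribosomal protein scale and 9162 higher on the mitochondrial scale, whose own genes were high at 60 min.

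Against the nucleus, 141 lower and 306 higher became 804 and 704 with median centring, 1 and 111 on the mitochondrial scale, 84 and 154 at pseudocount 0.1, 61 and 53 at 0.5, 198 higher on the ribosomal protein scale, 309 and 1409 without nucleus 30 min replicate 1, and 0 to 70 and 0 to 521 with a replicate left out (unadjusted 1197 to 3001). Against the membrane fraction, 218 and 619 became 550 lower with median centring, 23 and 5431 on the mitochondrial scale, 29 and 16 on the ribosomal protein scale, 338 higher at pseudocount 0.5 and 0 with any replicate left out (unadjusted 1694 to 2389). The cause of these moves was not tested.

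The sources used here do not say whether samples with the same replicate number at different times share a passage. Correlations of their deviations ran from −0.00 to 0.03 in the cytosol. Fractions of 1 time and number may come from 1 harvest, and theirs ran from −0.08 to 0.14. The replicate block gave 4729 falls and 133 rises (4459 and 105 shared), 48 and 120 against the nucleus, and 353 higher against the membrane fraction. With time and number together as a replicate block, 0 were lower and 0 higher against the nucleus (2218 unadjusted), and 1 lower and 0 higher against the membrane fraction (2798 unadjusted).

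With median centring the sign turned for Col4a2 (0.27), Hnrnpa2b1 (0.14), Larp7 (0.28), Pmaip1 (0.16), Pou5f1 (0.48), Shisa3 (0.031), Srf (0.20), Tha1 (0.13), Tuba1b (0.29) and Vars (0.13), and for Pou5f1 also on the mitochondrial (0.14) and ribosomal protein (0.020) scales. With a replicate left out, values of both signs were found for Bub1 (−0.059 to 0.044), Cnot2 (−0.18 to 0.71), Ebp (−0.073 to 0.27), Kcnq1ot1 (−0.00112 to 0.36), Pfkp (−0.068 to 0.17), Pola1 (−0.020 to 0.076), Pou5f1 (−0.098 to 0.070), Rpl39l (−0.33 to 0.93), Shisa3 (−1.01 to 0.19) and Zfp981 (−0.44 to 0.78). Of these only Srf and Vars passed the test with all libraries. Genes with under 10 reads had wide errors.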
